A study of Mus musculus with 4 samples.

Results

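Alveolar macrophage identity genes were examined for H3K27me3, the trimethyl mark that Polycomb repressive complex 2 (PRC2) places on histone H3 at silent genes. The set holds 31 genes of 27095 in the deposited table, taken by symbol from a list of surface markers, growth factor receptors, transcription factors, lipid handling proteins and enzymes by which these cells are known. Alveolar macrophages sorted from mouse lung on a C57BL/6 background were profiled by Cut&Tag, in which an antibody directs a transposase to cut and tag the chromatin around it. Irradiated C57BL/6-Ly5.1 hosts had received marrow that was 90% Ly5.2 and 10% wild-type Ly5.1, and the Ly5.2 part was wild type in 2 libraries and Suz12 conditional knockout (cKO) in 2. Both groups therefore share the irradiated host and the Ly5.1 marrow. The sources used here do not give the Cre line, the exons removed, the age of the mice or whether the sort set Ly5.2 cells apart from Ly5.1 cells. Suz12 encodes an obligate subunit of PRC2, so the design asks where the mark stands in bone marrow-derived alveolar macrophages and how it differs when that subunit is deleted.

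Alveolar macrophages clear surfactant and debris from the airspaces. Their fate is set in lung by GM-CSF (granulocyte-macrophage colony-stimulating factor) and TGF-beta, which act through the nuclear receptor PPAR-gamma, and their genes include many of lipid uptake and storage. Genes in use usually lack H3K27me3, and genes of other lineages often carry it, most of all where their promoters are rich in CpG dinucleotides. A lower level of the mark does not by itself mean that a gene is transcribed, and RNA was not analysed here.

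The libraries held 2142175 to 2592297 counts in wild type and 3331138 to 3567282 in cKO. Each count is of reads over a gene with about 3 kb on each side, a span that matched the listed length exactly for 11525 of 27095 genes. Promoter and gene body thus enter together. Levels are CPM, the counts scaled to library size with TMM factors, and, to compare genes, CPM per kb of window. CPM are shares of a library, so they would not show a shift common to every window. Over the Suz12 window, which spans the whole gene, there were 8 and 10 counts in wild type and 11 and 10 in cKO, and this does not check the deletion. Chi-square over degrees of freedom was 1.94 between the wild-type replicates and 1.79 between the cKO replicates, above the 1 of pure counting noise, and 3.43 to 3.89 across genotypes. The 4 libraries are biological replicates, 2 of each genotype, per the series' design text.

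Of the 31 members, 5 of the 22 with a RefSeq promoter (GRCm38.p6, from 250 bases before to 50 after the start) had 10 or more CpG in those 300 bases, or 22.7%. Among 18458 genes of the table with such a promoter the share was 56.5%. The median was 3 CpG for the members and 13 for all. Bhlhe41, with 32, and Car4, with 15, stand for the CpG-rich members, and Marco, with 0, for the others. The 250 bases before their starts, which hold 31, 11 and 0 of these CpG, are shown here with each CpG in capitals. They lie at chr6:145865421-145865670 on the minus strand, chr11:84957504-84957753 on the plus strand and chr1:120505025-120505274 on the minus strand.
Bhlhe41: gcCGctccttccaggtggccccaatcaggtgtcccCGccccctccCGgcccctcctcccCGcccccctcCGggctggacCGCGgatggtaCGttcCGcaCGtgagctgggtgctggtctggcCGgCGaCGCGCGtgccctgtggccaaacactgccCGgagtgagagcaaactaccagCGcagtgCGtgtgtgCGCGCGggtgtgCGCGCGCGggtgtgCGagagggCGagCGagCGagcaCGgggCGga
Car4: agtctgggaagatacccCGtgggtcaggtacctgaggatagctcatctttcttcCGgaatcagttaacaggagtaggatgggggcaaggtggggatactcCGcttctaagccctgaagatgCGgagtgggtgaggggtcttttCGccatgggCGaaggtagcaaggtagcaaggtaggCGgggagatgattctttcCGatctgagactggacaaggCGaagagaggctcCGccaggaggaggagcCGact
Marco: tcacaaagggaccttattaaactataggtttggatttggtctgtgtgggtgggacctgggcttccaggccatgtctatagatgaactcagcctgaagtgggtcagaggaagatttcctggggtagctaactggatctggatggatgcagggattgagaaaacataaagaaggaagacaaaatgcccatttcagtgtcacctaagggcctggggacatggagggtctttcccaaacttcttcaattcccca
The Bhlhe41 promoter also holds CACGTG, which reads the same on both strands and is the E-box that the proteins of Bhlhe40 and Bhlhe41 bind. It occurred in 1 of the 22 member promoters and in 8.02% of all. The CpG count did not order the members by the mark: Marco had the highest level of the 31 in wild type without a CpG in these bases, while Cebpb, with 50 CpG, stood at 0.0517 CPM per kb in a window that is 75.5% overlapped by another. In wild type the median level was 0.27 CPM per kb for members with 10 or more promoter CpG and 0.142 for the others, against 0.161 and 0.466 for all genes so divided.

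The identity genes carried little H3K27me3 in either genotype. The median of the 31 was 0.142 CPM per kb (wild type) against 0.123 (cKO), below the median of all windows (0.216 and 0.213) and of the 16752 windows above the count filter (0.672 and 0.687). In wild type 24 of the 31 lay below the all-window median, 7 above it and 0 above its 75th percentile. Summed over the 703.3 kb of member windows, wild-type libraries 1 and 2 held 342 and 228 counts and cKO libraries 1 and 2 held 480 and 454, which is 0.189, 0.148, 0.209 and 0.189 CPM per kb. The sums of wild-type library 1 and cKO library 2 were thus alike to 3 digits, and the genotypes overlapped. The ratio of cKO to wild-type means was 1.18, and 1.05 to 1.34 with any 1 library left out. By such sums, members shared this low level with 10 genes of all macrophages, at 0.160 and 0.154 CPM per kb in wild type. The sums of 40 housekeeping genes were 0.211 and 0.223. By medians in wild type, the members at 0.142 stood above the housekeeping genes at 0.0673 and below the genes of all macrophages at 0.187.

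**Figure D1:**
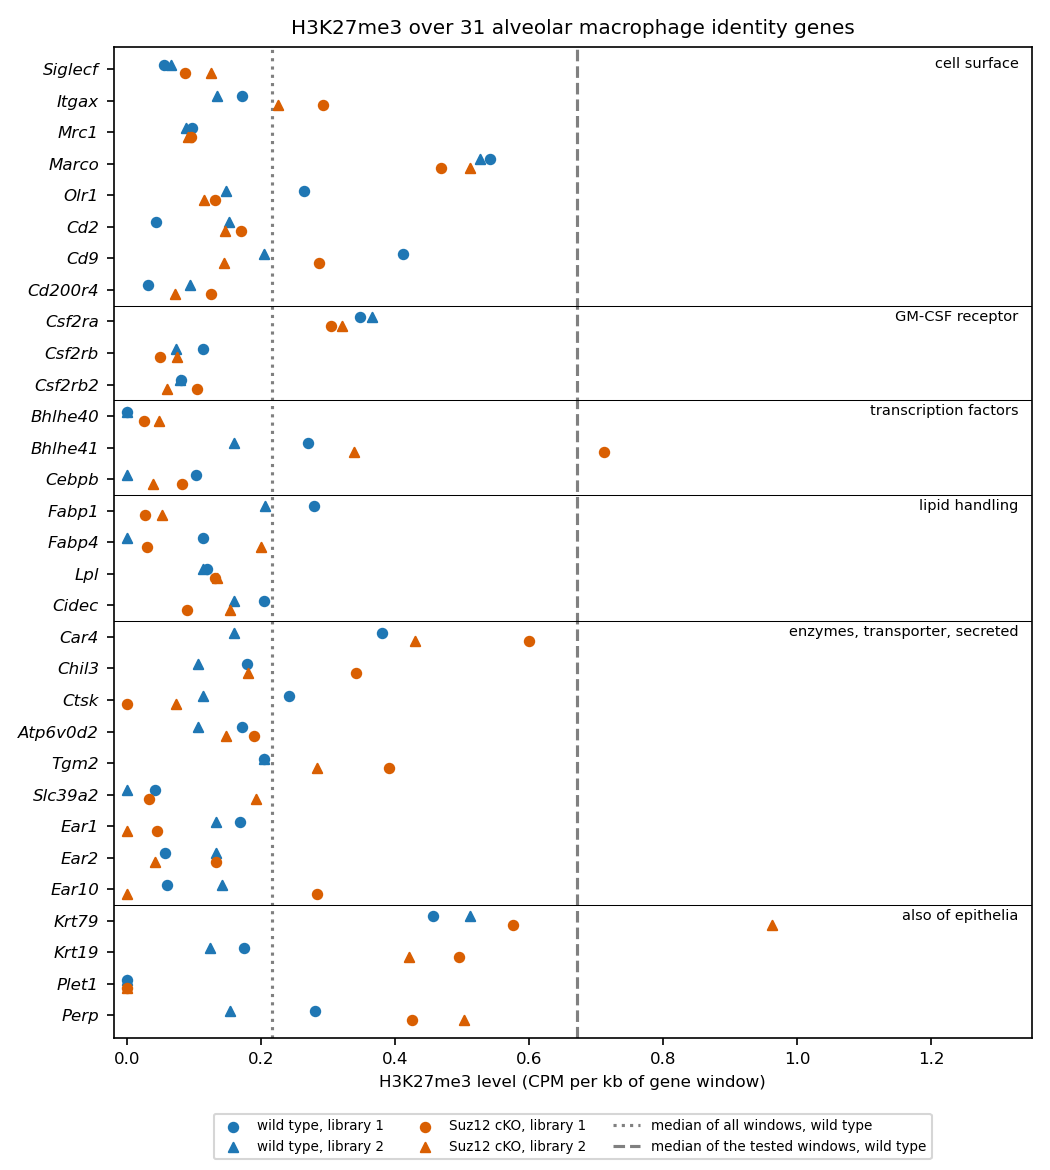
H3K27me3 level in CPM per kb (x axis) of each of the 31 identity genes, with a point for each of the 4 libraries, grouped by role. In wild type all members lie left of the dashed line at 0.672, the median of the tested windows, and the means of 24 lie left of the dotted line at 0.216, the median of all windows.

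Genes of other cell types stood higher, as the plot of levels by cell type list shows. The median in wild type was 1.76 CPM per kb for 13 lung epithelial genes, 1.18 for 10 B cell genes, 0.706 for 10 T and NK cell genes, 2.35 for 10 endothelial and fibroblast genes, 0.866 for 10 genes of monocytes and interstitial macrophages and 0.26 for 10 neutrophil genes. For 15 genes of peritoneal macrophages, Kupffer cells and microglia it was 0.812. None of the 31 members passed the tested median of 0.672 in wild type, against 10 of 13 epithelial genes, 9 of 15 genes of other tissue macrophages and 0 of 10 genes of all macrophages. Levels of this mark give no share of cells of any type, and no such share was computed. Ms4a1 and P2ry12, of the B cell and microglia markers, had 0 counts in all libraries, but 100% of their windows is shared with others, where reads were mostly not counted. Both were picked out after their values were seen.

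**Figure D2:**
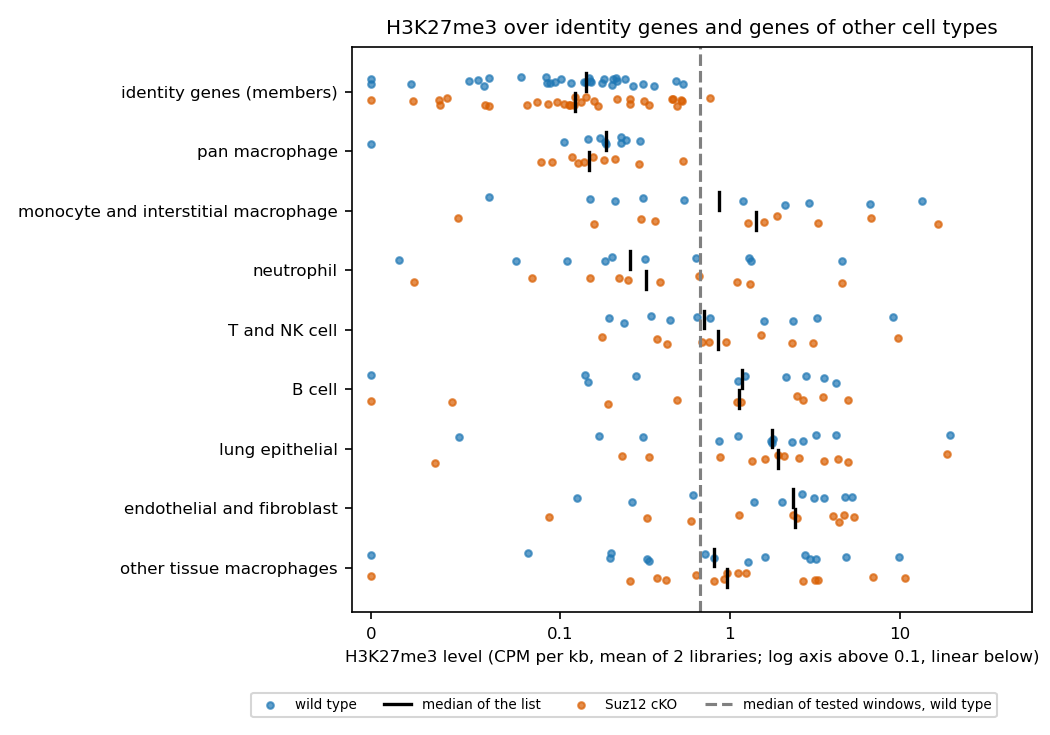
H3K27me3 level per gene in CPM per kb (x axis, logarithmic above 0.1 and linear below), as the mean of 2 libraries of each genotype, for the identity genes and 8 lists of other genes. Black bars are list medians, which run from 0.142 for the identity genes to 2.35 for endothelial and fibroblast genes in wild type.

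Most members also stood lower than the genes beside them, though no such count was made over all windows for comparison. For 20 of the 31 the nearest windows on both sides that do not overlap the member were higher in wild type, for 2 (Car4 and Olr1) both were lower, and 9 lay between. Marco, a scavenger receptor that binds bacteria and particles, is the extreme case. Its window on chromosome 1 (gene at 120474538 to 120505024, mm10) held 51 and 42 counts in wild type and 56 and 64 in cKO, at 0.534 and 0.490 CPM per kb. The windows on its sides belong to En1, a homeobox gene of the midbrain and limb, and C1ql2. In wild type they reached 29.1 and 12.7 CPM per kb, and 33.2 and 15.4 in cKO. Marco thus had the highest level of the members in wild type and lay between far stronger neighbours, with gaps of 91.5 kb to the En1 window and 125 kb to that of C1ql2. Tgm2, which encodes transglutaminase 2, stood at 0.204 CPM per kb, with D630003M21Rik at 5.00 on one side and 2010009K17Rik lower, at 0.171, on the other. Csf2rb2 stood at 0.0793 with Pvalb, within 100 kb and picked out after its value was seen, at 5.94. A window above the 90th percentile of all windows (2.3 CPM per kb) lay within 100 kb of 7 members. The share over all windows was not computed for this either. These counts therefore do not set the members apart beyond their low level. Some neighbours are also members themselves, as Ear1 beside Ear10 and Csf2rb beside Csf2rb2.

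**Figure D3:**
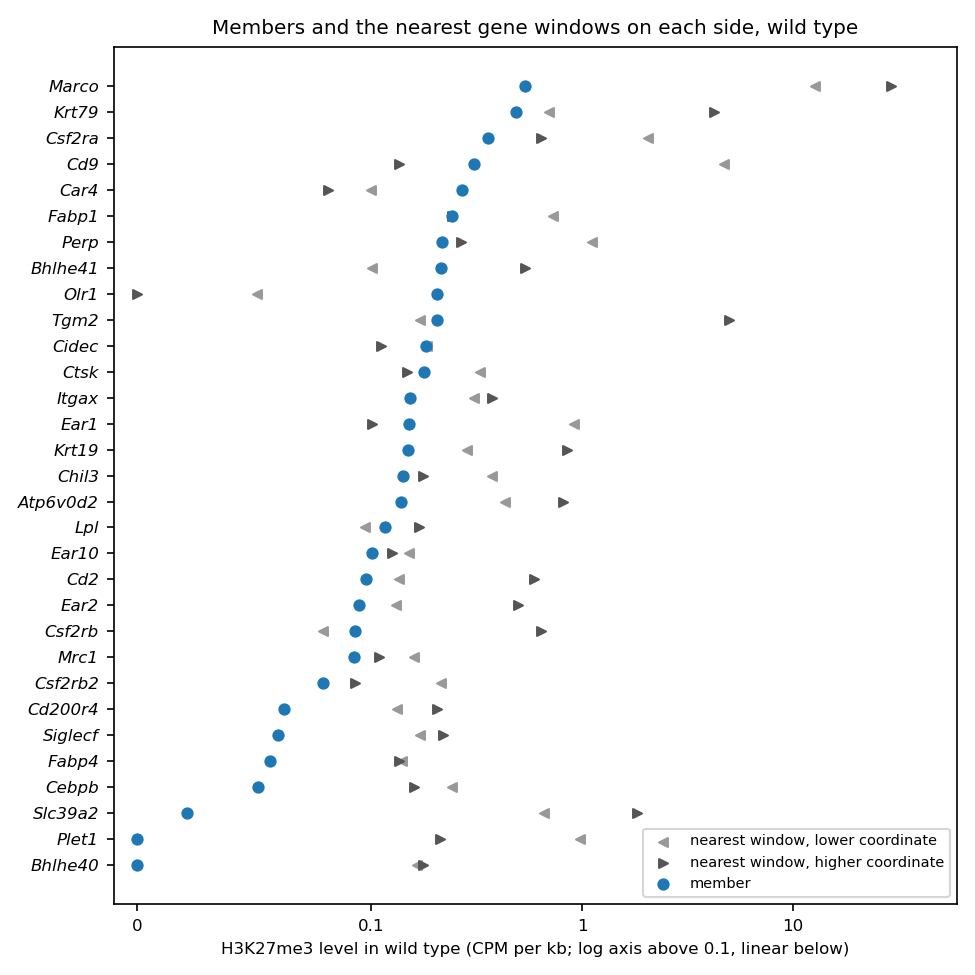
Wild-type H3K27me3 level in CPM per kb (x axis, logarithmic above 0.1 and linear below) of each member and of the nearest gene window on each side. Both neighbours lie to the right of the member for 20 of the 31, and those of Marco at 12.7 and 29.1 are the farthest.

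None of the members was called between genotypes. The edgeR quasi-likelihood test reached 14 of the 31, of which 0 gained and 0 lost at an adjusted p below 0.05, beside 4.46% gained and 1.96% lost (6.42% in all) of 16752 genes tested. At an unadjusted p below 0.05 there were 3 of 14, beside 18.5% of all genes tested, and 0 of 14 by DESeq2. Of all calls 69.4% were gains, and 55.7% with library totals or 86.1% with scaling to housekeeping genes. The other 17 members lay below the count filter. That filter acts on CPM, and a member could pass it through the libraries of either genotype alone. Krt19 passed through cKO and Csf2ra through wild type. Perp, Car4 and Chil3 met the cutoff in both cKO libraries but not in wild-type library 2. Olr1 met it in both wild-type libraries but not in cKO library 2. Each of these was tested only because of the genotype in which it was higher, so the 14 are not a fair sample of the set for direction. Of the 30 members with any read, 11 (36.7%) had both cKO libraries above both wild-type libraries, beside 20.9% of all windows with a read, and 7 (23.3%) had both below, beside 22.4%. With housekeeping scaling 12 were higher and 4 lower, beside 25% and 15.9% of all windows with a read. Counts were low, at a median of 29 reads per member over 4 libraries and under 20 for 11 members, and counting error alone was wide.

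The group that stood highest in cKO was that of members also used by epithelia. Over their 4 windows the sum was 0.233 and 0.203 CPM per kb (wild type) against 0.363 and 0.476 (cKO), without overlap of the genotypes. Nor did the sums overlap for the transcription factors (0.109 and 0.0484 against 0.248 and 0.134). Their ratio of cKO to wild type was larger, at 2.42 against 1.92. Those of the GM-CSF receptor were lower in cKO without overlap (0.133 and 0.118 against 0.109 and 0.104). Krt19, a keratin of simple epithelia, held 5 and 3 counts in wild type and 18 and 16 in cKO, or 1.66 ± 0.400 and 5.09 ± 0.588 CPM (SD, n = 2 each). Its log2 fold change of 1.58 ± 0.65 (SE) was the highest of the 14, with an adjusted p of 0.139, and its window is 10.3% overlapped. Krt19 passed the count filter through the cKO libraries alone, the group in which it was higher. Perp, a p53 target of desmosomes, held 13 and 6 counts in wild type and 25 and 31 in cKO (3.89 ± 1.62 and 8.35 ± 0.997 CPM, log2 fold change 1.07 ± 0.47, adjusted p = 0.175). Perp missed the cutoff of the filter in wild-type library 2, and without the cKO libraries it would not have been tested. Krt79, a keratin found in skin glands and in alveolar macrophages, held 20 and 19 counts and then 32 and 56 (log2 fold change 0.67 ± 0.35, adjusted p = 0.279, window 10.2% overlapped). In cKO library 2 it reached 0.962 CPM per kb, and its cKO mean of 0.769 was the only mean of a member above the tested median. These 3 of the 4 genes were higher in both cKO libraries, beside 20.9% of all windows with a read, and none passed the test. The remaining gene, Plet1, had 0 counts.

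Plet1, a surface protein of epithelial progenitors and alveolar macrophages, had 0 counts in all 4 libraries. That count allows up to 0.0512 to 0.0803 CPM per kb, depending on the library, but 95.1% of the Plet1 window is shared with another, and reads in shared parts were mostly not counted. The 13 lung epithelial genes, the other cell type nearest to this group, summed to 2.25 and 1.91 CPM per kb (wild type) against 2.29 and 2.31 (cKO), with none at 0. Of the 12 tested, 1 gained, Hopx (log2 fold change 0.54 ± 0.14, adjusted p = 0.00493), and 0 lost, beside 4.46% gained and 1.96% lost of all genes tested. Hopx, named after its value was seen, was not called by DESeq2 (adjusted p = 0.114), with housekeeping scaling (0.0506) or without cKO library 1 (0.235). Whether other cells in the sort had a part in the values of Krt19, Perp and Krt79 was not tested.

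Enzymes, transporters and secreted proteins summed to 0.188 and 0.129 CPM per kb (wild type) against 0.257 and 0.184 (cKO). Tgm2 held 19 and 16 counts in wild type and 46 and 35 in cKO, or 7.35 ± 0.0296 and 12.1 ± 2.72 CPM (log2 fold change 0.72 ± 0.36, adjusted p = 0.265). Car4, the membrane-bound carbonic anhydrase, held 14 and 5 counts and then 28 and 21 (0.88 ± 0.48, adjusted p = 0.321). With 1 library left out, the log2 fold change of Car4 ran from 0.44 (without wild-type library 2) to 1.67 (without wild-type library 1). Chil3, the chitinase-like protein Ym1, held 12 and 6 and then 29 and 16 (0.84 ± 0.50, adjusted p = 0.382), and reads may be split with its near copy Chil4. In these 3 both cKO libraries stood above both wild-type libraries, though for Chil3 only by 4.67 against 4.65 CPM, and none passed the test. They are 33.3% of the 9 genes of this role, and Ctsk and Ear1, lower in both cKO libraries, are 22.2%. The shares of all windows with a read were 20.9% and 22.4%. Car4 and Chil3 missed the cutoff of the count filter in wild-type library 2, and without the cKO libraries they would not have been tested. Atp6v0d2, a subunit of the lysosomal proton pump, held 23 and 12 counts in wild type and 32 and 26 in cKO, which overlap on the CPM scale (0.25 ± 0.40).

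Ctsk, which encodes the collagen-degrading protease cathepsin K, went the other way. Its counts were 10 and 4 in wild type and 0 and 4 in cKO, 0.203 times as many per library size (95% exact Clopper-Pearson interval 0.0487 to 0.647, for counting error only). It lay below the filter, and a fit with no filter gave an adjusted p of 0.249. Its window is 24.9% overlapped. The eosinophil-associated ribonuclease genes Ear1, Ear2 and Ear10 had 0 to 6 counts per library. They are near-identical, so reads of each may be lost or assigned to another. Ear1 was also lower in both cKO libraries, with 3 and 2 counts in wild type and 1 and 0 in cKO. Slc39a2, a zinc transporter, had 1 and 0 counts and then 1 and 6, in a window that is 49.5% overlapped.

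Surface markers showed the least difference as a group, at 0.206 and 0.171 CPM per kb (wild type) against 0.195 and 0.168 (cKO). Siglecf, the lectin by which alveolar macrophages are commonly sorted, had 2 and 2 counts in wild type and 4 and 6 in cKO, the latter 1.78 times the former per library size (interval 0.513 to 7.77). Itgax, which encodes CD11c, held 12 and 8 counts and then 26 and 21 (4.16 ± 0.700 and 7.04 ± 1.28 CPM, log2 fold change 0.74 ± 0.48, adjusted p = 0.432). Mrc1, the mannose receptor CD206, held 27 and 21 counts and then 34 and 34, or 10.5 and 9.62 CPM against 10.4 and 9.93. In wild type Siglecf, at 0.0601 CPM per kb, and Mrc1, at 0.0925, lay below the member median of 0.142, and Itgax, at 0.153, lay just above it.

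Marco, at the counts given above, reached 19.5 ± 0.386 CPM (wild type) against 17.9 ± 1.11 (cKO), with a log2 fold change of −0.12 ± 0.26 and an adjusted p of 0.864. Olr1, the oxidised LDL receptor, held 19 and 9 counts in wild type and 12 and 11 in cKO (−0.75 ± 0.53, adjusted p = 0.481). Olr1 missed the cutoff of the count filter in cKO library 2, and without the wild-type libraries it would not have been tested. The tetraspanin gene Cd9 held 43 and 18 and then 38 and 20 (−0.54 ± 0.35, adjusted p = 0.426). Its spread within each genotype was as wide as that between them, and without wild-type library 1 its log2 fold change was 0.08. Cd2, an adhesion receptor better known from T cells, and Cd200r4, a receptor of the CD200R family, had 2 to 10 counts per library.

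**Figure D4:**
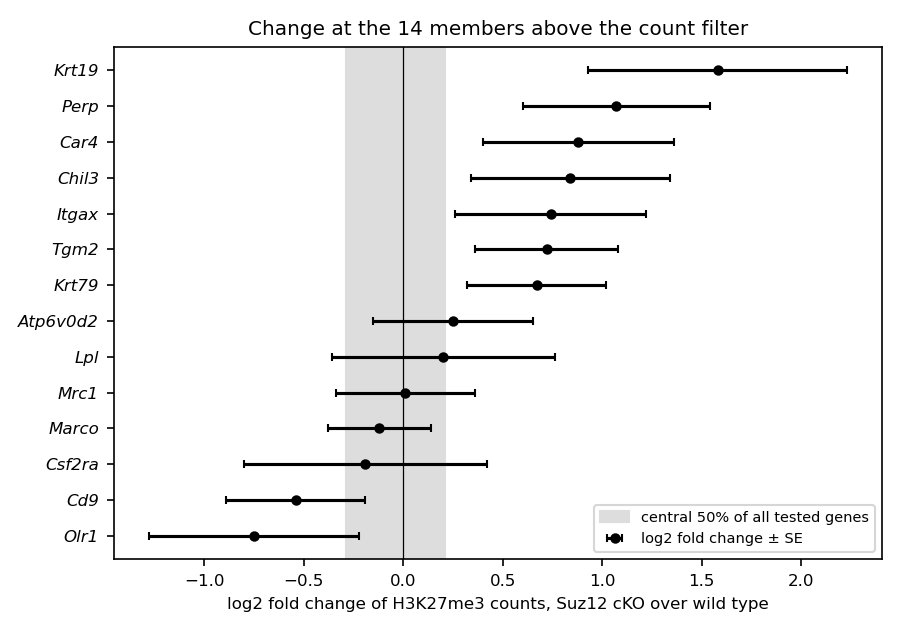
Log2 fold change of H3K27me3 counts in cKO over wild type (x axis) with its standard error for the 14 members above the count filter. The grey band is the central 50% of all tested genes (−0.29 to 0.21), Krt19 at 1.58 and Perp at 1.07 lie farthest to the right, and none of the 14 passed an adjusted p of 0.05.

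The genes of the GM-CSF receptor carried little of the mark, least of all those of the beta subunits. Csf2ra, its ligand-binding alpha subunit, held 9 and 8 counts in wild type and 10 and 11 in cKO (3.58 ± 0.122 and 3.14 ± 0.110 CPM, log2 fold change −0.19 ± 0.61, adjusted p = 0.923). Csf2rb, the signalling beta subunit, held 9 and 5 and then 5 and 8, and Csf2rb2, the mouse beta subunit of the IL-3 receptor, 6 and 5 and then 10 and 6. The latter pair are close copies that lie side by side on chromosome 15, so reads may be split between them. Per kb, Csf2ra at 0.357 CPM stood above the all-window median in wild type and the beta subunits, at 0.0932 and 0.0793, below it. The value of Csf2ra rests on a listed window length of 10.0 kb, which is shorter than its RefSeq gene span.

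Of the transcription factors, Bhlhe41 differed most. Bhlhe40 and Bhlhe41 are repressors that sustain alveolar macrophage identity and proliferation, and Cebpb is needed for their development. Bhlhe41 held 6 and 3 counts in wild type and 20 and 10 in cKO, or 0.270, 0.160, 0.711 and 0.339 CPM per kb. The cKO level was 2.37 times that in wild type, with an interval for counting error of 1.10 to 5.68, and a fit with no filter gave a log2 fold change of 1.26 ± 0.65 and an adjusted p of 0.356. Bhlhe40 had 0 counts in wild type and 1 and 2 in cKO, and Cebpb 2 and 0 and then 2 and 1. Their windows are 51.3% and 75.5% overlapped, and at these counts no fold change can be read.

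Lipid handling genes summed to 0.164 and 0.123 CPM per kb (wild type) against 0.0906 and 0.136 (cKO). Fabp1, the liver-type fatty acid binding protein, stood lower in both cKO libraries, with 8 and 5 counts in wild type and 1 and 2 in cKO. The ratio was 0.164 (interval 0.0300 to 0.597), and the fit with no filter gave a log2 fold change of −2.47 ± 1.07 and an adjusted p of 0.219. Fabp4, the adipocyte-type protein and a PPAR-gamma target, had 3 and 0 counts and then 1 and 7. Lpl, lipoprotein lipase, held 10 and 8 and then 14 and 15 (log2 fold change 0.20 ± 0.56, adjusted p = 0.909), and Cidec, a lipid droplet protein, 9 and 6 and then 5 and 9.

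Upstream of these genes, a list of 30 ligands, receptors and regulators around alveolar macrophage fate was more varied, with 8 above the tested median of 0.672 in wild type. Of the 28 tested, 2 gained and 0 lost, beside 4.46% gained and 1.96% lost of all genes tested. Calls in this list were thus about as frequent as among all genes. Cebpa, a myeloid transcription factor, rose from 4 and 4 counts to 22 and 23 (6.72 ± 0.00682 CPM from 1.69 ± 0.198, log2 fold change 1.97 ± 0.60, adjusted p = 0.0243). It passed the count filter through the cKO libraries alone, the group in which it was higher. Bach2, a repressor known from lymphocytes, rose to 173 ± 6.65 CPM from 128 ± 14.7 (0.44 ± 0.11, adjusted p = 0.0044, window 5.08% overlapped). DESeq2 did not call Bach2 (adjusted p = 0.072). It gave no adjusted p for Cebpa and so could not call that gene (unadjusted p = 0.0178). Leaving out each library gave an adjusted p of 0.111 to 0.324 for Cebpa, and Bach2 was lost on leaving out wild-type library 1 (0.124) or either cKO library (0.0649 and 0.229). With scaling to housekeeping genes Bach2 was not called (adjusted p = 0.11). Pparg, which encodes PPAR-gamma, stood at 13.8 ± 3.11 CPM (wild type) against 20.6 ± 1.51 (cKO), with a log2 fold change of 0.59 ± 0.27 and an adjusted p of 0.208, and at 0.102 and 0.153 CPM per kb its level was like that of the members.

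Within that list some genes were singled out after their values were seen. Csf2, which encodes GM-CSF itself and is made by lung epithelium rather than by these cells, held 141 and 114 counts in wild type and 184 and 175 in cKO, or 6.19 and 6.22 CPM per kb, with a log2 fold change of 0.00 ± 0.16. Ligand and receptor therefore stood far apart, Csf2 at 6.19 CPM per kb and the receptor genes at 0.0793 to 0.357. Maf, a macrophage factor whose expression is low in alveolar macrophages, had 70 and 58 counts in wild type and 143 and 115 in cKO, or 2.78 and 4.01 CPM per kb (log2 fold change 0.52 ± 0.20, adjusted p = 0.103).

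**Figure D5:**
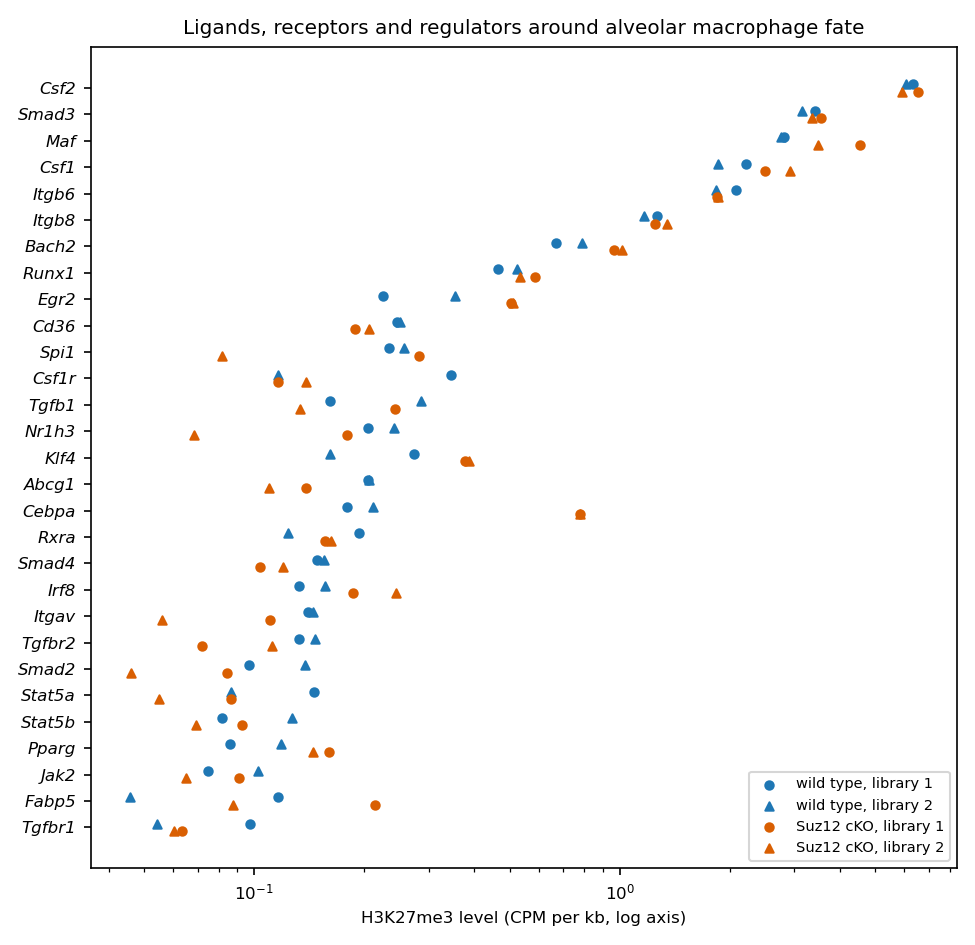
H3K27me3 level in CPM per kb (x axis, logarithmic) of 29 of the 30 ligands, receptors and regulators in each of the 4 libraries, ordered by their wild-type mean. Csf2 lies at the top, Pparg near the bottom, and the cKO points of Cebpa and Bach2 lie to the right of the wild-type points.

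The nearest neighbours of the members were also read from the same test. Of 58 such windows, 46 were tested, and 4 gained and 1 lost, together 10.9% beside 6.42% of all genes. Cd2 lies between Igsf3, an immunoglobulin superfamily gene that rose to 101 ± 6.03 CPM from 54.3 ± 5.52 (log2 fold change 0.89 ± 0.14, adjusted p = 7.38e-08), and Ptgfrn, a tetraspanin partner (0.99 ± 0.29, adjusted p = 0.018). Cd2 itself had 2 and 6 counts in wild type and 10 and 9 in cKO. Itgad, the integrin gene next to Itgax, rose from 31 and 35 counts to 102 and 113 (1.21 ± 0.24, adjusted p = 8.43e-05) in a window that is 51.8% overlapped. Beside Perp, 4930444F02Rik gained (0.48 ± 0.16, adjusted p = 0.0452), and beside Bhlhe40 the lysosomal GTPase gene Arl8b lost (−2.03 ± 0.56, adjusted p = 0.00875). Arl8b passed the count filter through the wild-type libraries alone, the group in which it was higher. Igsf3 and Itgad were called under all 9 alternative settings run for them. The other calls were less stable. Ptgfrn was lost without any 1 library (adjusted p 0.0542 to 0.142), Arl8b without wild-type library 2 (0.503) or cKO library 2 (0.22), and 4930444F02Rik without wild-type library 1 (0.433) or without either cKO library (0.0754 and 0.571). The call of 4930444F02Rik was also lost with library totals (0.0978) and with housekeeping scaling (0.108). DESeq2 did not call Ptgfrn (adjusted p = 0.224) or 4930444F02Rik (0.371). For Arl8b it gave no adjusted p and so could not call it (unadjusted p = 0.00739).

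Among monocyte markers, Ly6c2, by which classical monocytes are sorted, rose from 13 and 12 counts to 43 and 41 (log2 fold change 1.25 ± 0.39, adjusted p = 0.0283). It was picked out after its value was seen. DESeq2 gave no adjusted p for Ly6c2 and so could not call it (unadjusted p = 0.0219). With any 1 library left out it was not called, and its log2 fold change was 1.19 to 1.32. The 10 monocyte and interstitial macrophage genes summed to 2.22 and 1.85 CPM per kb (wild type) against 2.19 and 2.42 (cKO), with none at 0. Of the 8 tested, 1 gained and 0 lost, beside 4.46% gained and 1.96% lost of all genes tested.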

How the data were processed

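Reads in gene windows were counted by the authors, and the deposited table holds whole-number counts for 27095 Entrez gene IDs in 4 libraries, each from 100000 cells and read as 36 bp pairs. The submitters' processing notes name featureCounts and mm10. The aligner, duplicate handling and counter settings were not given in the sources used here. Window lengths equal the RefSeq gene span plus 3 kb on each side for 11525 of the 27095 genes and for 13 of the 31 members. Overlap shares and gaps between windows were taken from RefSeq spans with these flanks. For the other genes they can differ from those of the counted windows. Of 2445 windows wholly within others, 67.1% held 0 counts, against 1.27% of windows that overlap none.

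RefSeq symbols matched 25204 IDs (93.0%). Counts above the filterByExpr filter were compared with edgeR 4.0.16 (R 4.3.3) by its quasi-likelihood test with TMM factors and Benjamini-Hochberg adjustment over 16752 genes, at a threshold of 0.05. SE is the log2 fold change divided by the root of the F statistic. CPM are counts divided by TMM-scaled library sizes. Ratios have exact 95% Clopper-Pearson intervals, for counting error only, and 3 counts is the limit that a count of 0 allows. The script was tested on simulated data. DESeq2 1.42.0, library totals, scaling to 40 housekeeping genes, no filter, a replicate block and leaving out each library were alternatives. Python 3.11.15 was used for summaries.

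The members and lists were chosen with earlier results of these data known. Genes named are the 31 members, their nearest windows that do not overlap them, and, of the pathway list, Pparg and every gene called; others are said to be picked after their values were seen. The values of 1 gene of the pathway list are not reported here.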

Additional observations from a re-analysis of the deposited data

How the results depend on the processing

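None of the members was called under any of the 9 alternatives, and their lowest adjusted p was 0.137, without cKO library 1. With no count filter 30 members were fitted, 0 were called and 6 had an unadjusted p below 0.05. DESeq2 gave an adjusted p for 1 of the 14. The number of genes called, 1076, was 561 with housekeeping scaling, 377 by DESeq2 and 426 to 945 with 1 library left out. The 2 pathway calls became 1 with housekeeping scaling, 0 by DESeq2 and 0 to 1 with 1 library left out. For Cebpa, DESeq2 gave no adjusted p. Members lower in both cKO libraries numbered 7, and 4 with housekeeping scaling. The cause of these shifts was not tested. The log2 fold change of Mrc1, 0.01, was −0.04 with library totals and −0.03 to 0.09 with 1 library left out. With 1 library left out, that of Atp6v0d2 was −0.03 (without wild-type library 2) to 0.66 and that of Cd9 −1.10 to 0.08 (without wild-type library 1).

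Against TMM, library totals moved the median log2 fold change of all genes by −0.05 and housekeeping scaling by 0.12. The replicate numbers of the titles share no stated batch, and same-numbered libraries deviated together with a correlation of 0.00844. A fit with the replicate block called 1039 genes and 0 members. With 2 libraries a genotype, the smallest p of an exact two-sided permutation test is 0.333, so none was run. At these depths, of 2142175 to 3567282 counts, 17 members could not be tested.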
